A study of Mus musculus with 144 samples.

Results

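The chaperones, folding enzymes, stress sensors and export machinery of the endoplasmic reticulum (ER), 37 genes in all, were followed through the day in mouse liver and in 2 liver cell types. The 37 genes were chosen by symbol from the 24421 symbols of the deposited tables, and where a symbol had several transcript rows the row with the largest mean was kept. All mice were male C57BL/6J on normal chow, and each group was either wild type (control) or a REV-ERB a/b double knockout, which the study's design places in hepatocytes of adult animals. The circadian repressors REV-ERBα and REV-ERBβ are the products of Nr1d1 and Nr1d2. Liver was sampled from mice fed ad libitum and from mice under reverse-phase feeding, at 8 times of day 3 h apart (Zeitgeber time, ZT, counts the hours from lights on), with 3 libraries for each genotype, time and schedule, which gave 96 liver libraries. Endothelial cells and Kupffer cells, the resident macrophages of the liver, were isolated at 4 times 6 h apart with 3 libraries each, which gave 24 libraries per cell type, and the labels do not give the feeding schedule of those mice. The labels do not say whether the 3 libraries of a group came from separate animals, and if they did not, the p-values measure only the spread between these samples. The labels give no age and do not say how the deletion was driven, and the deposited columns name the controls GFP and the knockouts CRE.

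Secreted and membrane proteins enter the ER through the Sec61 channel and fold there with the help of the Hsp70 chaperone BiP (Hspa5), the Hsp90 chaperone Grp94 (Hsp90b1), the lectins calnexin and calreticulin, and the protein disulfide isomerases. When unfolded protein accumulates, the sensors IRE1 (Ern1), PERK (Eif2ak3) and ATF6 start the unfolded protein response, in which the transcription factors XBP1, cleaved ATF6 and ATF4 raise the expression of chaperones and of the machinery that returns misfolded protein to the cytosol for degradation. Hepatocytes secrete most plasma proteins, and ER genes of mouse liver are known to follow both feeding and an oscillation with a period of 12 h. The classical target sequence of ATF6, with the factor NF-Y, is the ER stress response element (ERSE).

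Library totals ran from 4567610 to 10364900 reads in ad libitum liver and from 13117800 to 26191900 in reverse-phase-fed liver, and the endothelial and Kupffer values are a quantile-normalised signal whose depth is unknown. In ad libitum liver, control library 2 of ZT 16 and control library 2 of ZT 22 stood apart from the rest of their table. So did the 3 endothelial knockout libraries at ZT 22 and libraries 2 and 3 at ZT 4 of both Kupffer genotypes. The criteria were transcript-length trend, spread and, in liver only, a ribosomal RNA share over 5%. That share ran from 1.71% to 8.69% in endothelial and from 0.826% to 2.24% in Kupffer libraries, where it was not a criterion. The count of Nr1d1 did not check the genotype label: its highest group mean in ad libitum liver was 158 normalised counts (CPM, reads scaled to library size) in controls and 160.2 in knockouts, both at ZT 7, and its lowest was 2.20 and 23.3, both at ZT 19. The counts cover whole transcripts and the labels do not say which part was deleted. In isolated endothelial cells the summed signal of 10 endothelial markers ran from 52308 to 73856 per library and that of 10 hepatocyte markers from 6554 to 102935. In isolated Kupffer cells 10 Kupffer markers summed to 112421 to 130992 and hepatocyte markers to 4799 to 54412.

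Of the 37 members, 31 were matched to a promoter in the RefSeq table (GRCm38.p6), and 10 of these 31 held the ERSE, CCAAT and CCACG 9 bases apart (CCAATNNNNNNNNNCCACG), on either strand in the 250 bases before the start. That was 32.3% of members, against 35 of 27025 symbols (0.13%) in the same window. The 27025 are all symbols of the RefSeq promoter table, not the genes tested for rhythm. The members were chosen by function and the ERSE is the classical target of ATF6, so these shares are a description and not a test. The sites are shown because 10 members share them. Capitals mark the fixed letters of the element, each sequence is read along the gene's own strand, and a site in the reverse orientation reads CGTGG then ATTGG.
Hspa5 (chr2:34772015-34772053, plus strand, 46 bases before the start): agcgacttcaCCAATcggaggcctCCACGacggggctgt
Hsp90b1 (chr10:86705628-86705666, minus strand, 193 bases before the start): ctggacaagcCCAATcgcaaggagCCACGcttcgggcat
Hsp90b1 (chr10:86705523-86705561, minus strand, 88 bases before the start): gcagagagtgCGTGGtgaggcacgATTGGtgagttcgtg
Calr (chr8:84847065-84847103, minus strand, 143 bases before the start): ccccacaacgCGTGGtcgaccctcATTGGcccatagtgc
Canx (chr11:50325790-50325828, minus strand, 126 bases before the start): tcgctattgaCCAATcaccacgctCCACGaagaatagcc
Pdia6 (chr12:17266481-17266519, plus strand, 79 bases before the start): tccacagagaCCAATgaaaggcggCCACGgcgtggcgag
Dnajc3 (chr14:118937817-118937855, plus strand, 86 bases before the start): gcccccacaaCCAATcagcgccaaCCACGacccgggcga
Creld2 (chr15:88819510-88819548, plus strand, 107 bases before the start): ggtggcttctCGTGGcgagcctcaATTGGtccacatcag
Syvn1 (chr19:6046522-6046560, plus strand, 25 bases before the start): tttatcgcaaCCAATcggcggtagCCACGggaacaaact
Derl3 (chr10:75893232-75893270, plus strand, 137 bases before the start): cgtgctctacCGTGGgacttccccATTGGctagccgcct
Ero1lb (chr13:12565672-12565710, plus strand, 182 bases before the start): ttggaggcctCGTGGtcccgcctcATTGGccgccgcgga
The promoter of Herpud1, an ER membrane protein of the degradation machinery, held the related ERSE-II, ATTGG and CCACG 1 base apart, found in 10 of the 27025 symbols.
Herpud1 (chr8:94386367-94386397, plus strand, 41 bases before the start): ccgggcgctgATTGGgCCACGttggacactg
The ERSE-II and the reverse of the UPRE core share the letters CCACG with the ERSE. The 5 other motifs, also searched on both strands, were each in 4 or fewer of the 31 promoters. The UPRE core TGACGTGG, an XBP1 sequence, was in 1 of 31 promoters (Sec24d) and in 0.603% of all symbols. The E-box CACGTG was in 4 (Calr, Dnajb9, Derl3 and Ssr1; 6.86% of all symbols). The RORE core TAGGTCA, the letters bound by REV-ERB, was in 0 of 31 windows and in 2.55% of all symbols, and the composite sites TGATGCAAT and TGATGAAAC were in 0 of 31 as well (0.192% and 0.189%). A match is a string of letters and was not tested as a binding site.

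In ad libitum control liver most ER genes rose to a maximum in the dark phase and fell to a minimum in the light phase. Hspa5, the main Hsp70 chaperone of the ER (mm9 chr2:34627610-34632049), was among the most abundant of them per transcript length, at 446 CPM per kilobase after P4hb, a disulfide isomerase subunit, at 579; the lowest levels were Eif2ak3 at 4.89 and Derl3 at 2.26. Normalised counts (CPM, scaled by TMM) of Hspa5 were 613, 798 and 394 in the 3 control libraries at ZT 4 and 2199, 2822 and 2307 at ZT 16. The ZT 16 libraries were all above every other control library of this schedule. In the fit, which gave each genotype a mean, a 24-h and a 12-h component (edgeR quasi-likelihood F test, Benjamini-Hochberg adjusted over all genes), the 24-h component of Hspa5 had a peak-to-trough range of 3.13-fold with its peak at ZT 17.26 ± 0.51 h (SE) (adjusted p = 5.09e-07). The knockout range was 3.31-fold, with the peak at ZT 17.2 (adjusted p = 2.86e-07). In the knockout libraries at ZT 16 the counts were 3454, 2262 and 4024, and the spread between the 3 was wider than in controls.

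Across the set, 33 of 37 members passed the 24-h test in ad libitum controls (50.1% of all genes tested) and 34 of 37 in knockouts (46.7%). The 4 that did not pass in controls were Eif2ak3, Derl3, Sec61b and Selk, and the 3 in knockouts were Eif2ak3, Derl1 and Derl3. Across the 37 members the median range was 1.59-fold in controls and 1.75-fold in knockouts, against 1.33 and 1.29 over all genes tested. The peaks of the members called gathered at a mean of ZT 17.7 in controls, with 27 of 33 within 3 h of it, against 25.3% of all genes called. In knockouts it was ZT 18.0 and 29 of 34, against 24.9%.

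The library values were also ordered by time, after they had been seen and with no test. All 3 libraries at ZT 16 were above all 9 libraries at ZT 4, ZT 7 and ZT 10 in 25 of 37 members in ad libitum controls (7.56% of all genes) and in 26 of 37 in knockouts (5.79%). ZT 16 was also above its neighbours ZT 13 and ZT 19 in every library of 14 control members (3.15%), among them Hspa5, Creld2, Manf and Sdf2l1, and of 8 knockout members (1.98%). Within the light phase, ZT 4 was above ZT 10 in 3 control members (Calr, Derl1 and Pdia6; 13.8%) and in 17 knockout members (12.9%). This count compares no genotypes.

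The widest fitted range of the set in ad libitum controls was that of Creld2, followed by the BiP cofactor Sdf2l1. Creld2, a secreted ER factor, had 20.8, 34.0 and 12.1 CPM at ZT 4 and 175, 260.4 and 233 at ZT 16 in controls, and all 3 ZT 16 libraries were above every control library at another time. Its fitted range was 6.97-fold in controls (peak ZT 16.20 ± 0.47 h (SE)) and 6.20-fold in knockouts. Sdf2l1 had 27.1, 10.7 and 8.44 CPM at ZT 10 and 82.6, 106 and 85.7 at ZT 16 and a range of 3.84-fold. Hyou1, a large Hsp70 relative that exchanges nucleotides on BiP, was 103, 145 and 65.4 CPM at ZT 4 and 444, 501 and 483 at ZT 16, a fitted 3.32-fold. Manf, a secreted factor that binds BiP, was 45.5, 58.7 and 61.5 CPM at ZT 7 and 211, 284 and 229.5 at ZT 16, without overlap, and ranged 3.33-fold. Dnajb9 was 38.3, 29.3 and 29.8 CPM at ZT 4 and 99.3, 119 and 125 at ZT 16. Dnajb11 ranged 2.18-fold, Dnajb9 2.16-fold and Dnajc3, which had the smallest adjusted p of the set in ad libitum controls (1.02e-08), 1.85-fold; the 3 Dnaj genes encode J-domain partners of BiP. All 7 passed the test in both genotypes.

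The folding enzymes, lectins and Hsp90b1 ranged from 1.19-fold (P4hb) to 2.34-fold (Pdia4) and all passed in both genotypes. Pdia4, a disulfide isomerase, was 159.7, 108 and 116 CPM at ZT 10 and 324, 417 and 381 at ZT 16 in controls, and every control ZT 16 library was above every ZT 10 library. Its range was 2.34-fold (peak ZT 18.88 ± 0.52 h (SE)). Hsp90b1 ranged 1.82-fold (1139, 1292 and 1259 CPM at ZT 16 in controls), Pdia3 1.69-fold, Pdia6 1.501-fold, Calr 1.77-fold and Canx 1.31-fold. Calreticulin and Pdia6 peaked at ZT 20.5 and ZT 21.5. The oxidase gene Ero1lb ranged 1.60-fold.

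Among the stress signalling genes, Ddit3, the CHOP factor of prolonged stress, was low, from 6.60 to 29.1 with a median of 9.66 CPM in the 24 control libraries, and passed the test (2.02-fold). Xbp1, the factor spliced by IRE1, passed with a range of 1.38-fold that peaked at ZT 11.6; its libraries at ZT 16 in controls were 322, 342 and 354 CPM and those at ZT 1 264, 231 and 236, which do not overlap. These are total Xbp1 counts, and spliced and unspliced forms were not told apart. Atf4, the translation-controlled factor of the PERK branch, ran from 91.9 to 161 with a median of 123 CPM and ranged 1.22-fold. The range of Ppp1r15b, a subunit of the phosphatase that ends the eIF2α signal, was 1.38-fold, with 199, 193 and 155 CPM at ZT 22. Atf6 and Ern1 passed at 1.24-fold and 1.54-fold, and Eif2ak3, the PERK gene, did not pass (1.23-fold, adjusted p = 0.302).

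Of the degradation genes, Herpud1 was 303, 295 and 185 CPM at ZT 1 and 558, 819 and 788 at ZT 13 in controls, with a 24-h range of 2.82-fold that peaked at ZT 13.2, before Hspa5. The ZT 13 libraries were all above the ZT 1 libraries. Syvn1 (the E3 ligase HRD1) had 3.07-fold, Sel1l (its adaptor) 1.62-fold, Edem1 (a mannosidase-like factor, with the smallest adjusted p of the set in knockouts, 9.86e-11) 1.53-fold, Derl2 1.21-fold and Derl1 1.12-fold. Derl1 was called in controls only, and the genotype difference of its 24-h rhythm did not pass in edgeR (it did in DESeq2). Derl3, whose counts were low (0.895, 8.05 and 5.80 CPM at ZT 16 in controls, 11.5, 1.91 and 1.19 at ZT 19 in knockouts), did not pass in either genotype. The translocation and export genes ranged 1.41-fold (Sec61a1), 1.54-fold (Ssr3), 1.48-fold (Ssr1), 1.86-fold (Sec23b) and 1.59-fold (Sec24d). Sec61b at 1.03-fold and Selk at 1.12-fold did not pass in controls and passed in knockouts, at 1.26-fold and 1.29-fold.

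**Figure D1:**
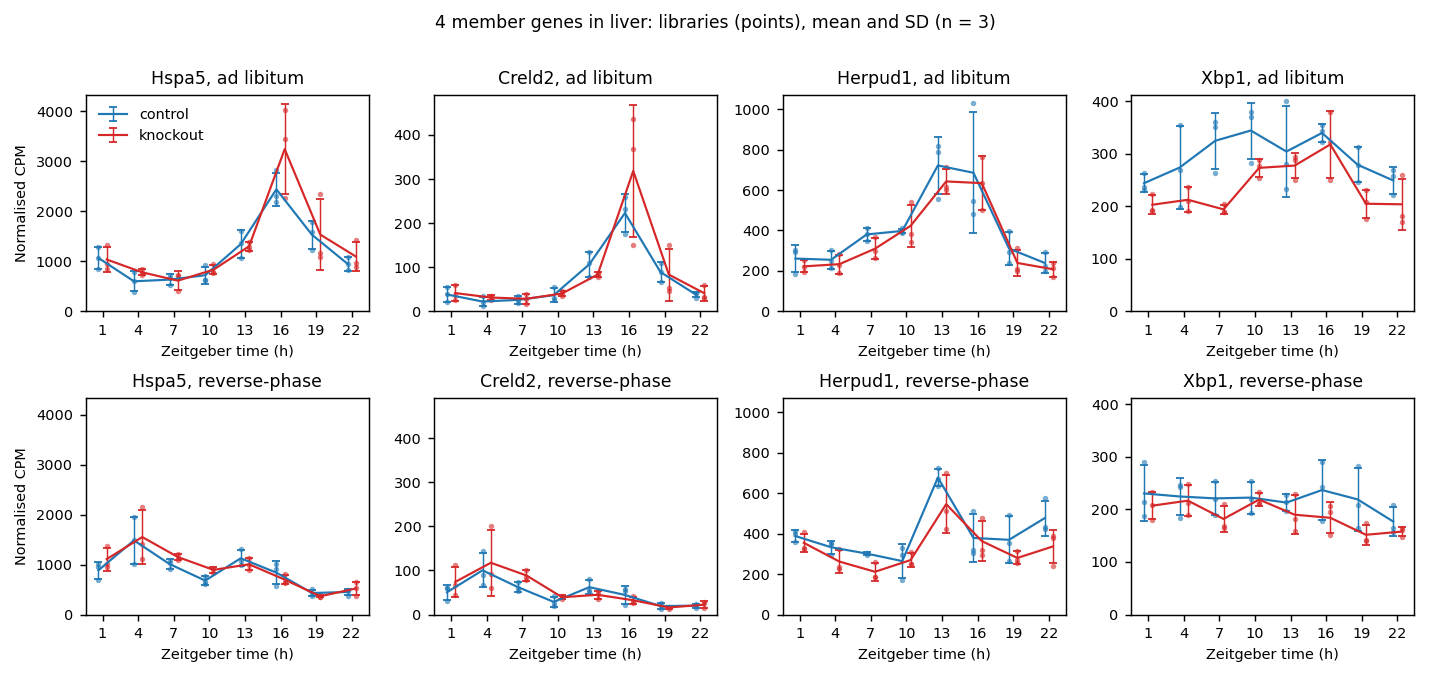
Normalised counts (CPM, y axis) of Hspa5, Creld2, Herpud1 and Xbp1 by Zeitgeber time (h, x axis), ad libitum above and reverse-phase-fed below; points are libraries, lines join the means of 3 libraries, and colours are the genotypes. The highest library of Hspa5 and of Creld2 is at ZT 16 in both genotypes of ad libitum liver and at ZT 4 in both genotypes of reverse-phase-fed liver.

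**Figure D2:**
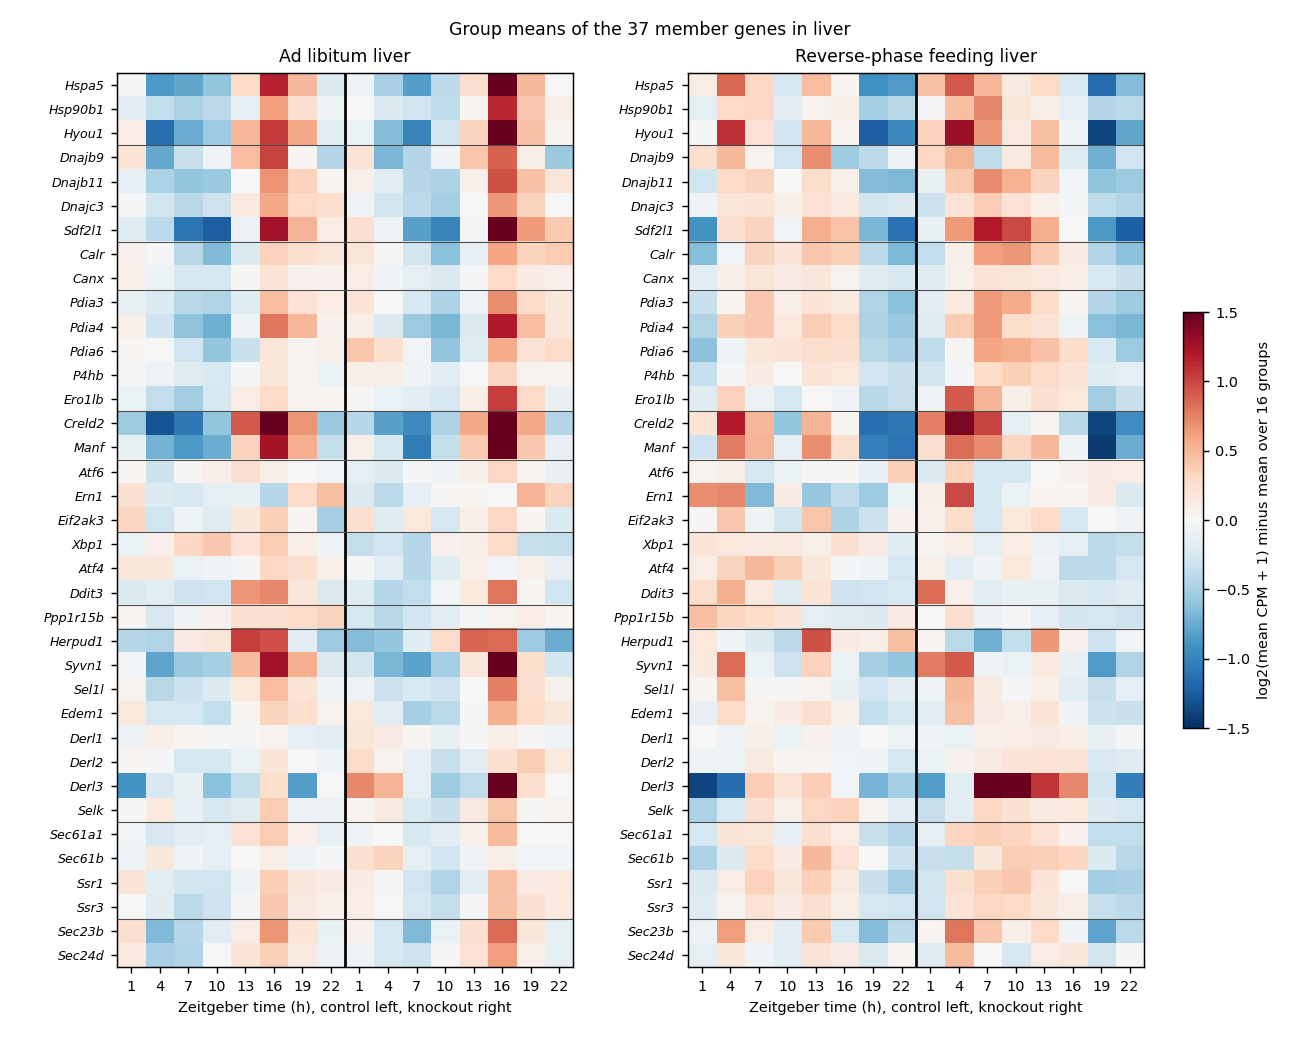
Group means of the 37 members in 16 groups per schedule, as log2 CPM centred per gene and schedule (colour, limited to 1.5 in each direction); rows are genes by role and columns are times within genotype. The ad libitum columns are highest around ZT 16, and the reverse-phase-fed columns are lowest at ZT 19 and ZT 22.

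Under reverse-phase feeding the fitted 24-h component of most members that passed peaked in the light phase, and the group means of controls were highest at ZT 13, early in the dark phase (median over members 0.30 on the log2 scale centred per gene, with 0.22 at ZT 4). Hspa5 in controls was 1008, 1959 and 1484 CPM at ZT 4. Values were 775, 608 and 654 in the ZT 10 libraries, while ZT 19 libraries held 416, 369.8 and 506. All values of ZT 10 and ZT 19 lie below those of ZT 4. The 24-h range of Hspa5 was 2.17-fold with its peak at ZT 7.33 ± 0.52 h (SE) in controls and 2.87-fold at ZT 6.49 ± 0.39 h (SE) in knockouts (edgeR adjusted p = 7.27e-07 and 1.54e-09). In all, 28 of 37 members passed in controls (43% of all genes) and 32 in knockouts (38.7%). All 3 libraries at ZT 4 were above all 6 at ZT 19 and ZT 22 in 17 control members (8.05%) and 26 knockout members (11.4%), an order found after the values were seen. In all 4 combinations of schedule and genotype 25 members passed the 24-h test (15.9% of all genes tested in both schedules), and Eif2ak3 passed in none (20.7%).

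The peaks of the members called were centred on ZT 9.0 in controls, with 22 of 28 within 3 h, and on ZT 8.4 in knockouts, with 27 of 32 within 3 h, against 21.2% and 26.8% of all genes called. Calreticulin had the smallest adjusted p in controls (2.29e-08), with 993, 1072 and 1188 CPM at ZT 13 and 403, 572 and 560.1 at ZT 22, and Dnajb11 in knockouts (4.35e-10), with 182, 191 and 199 at ZT 7 and 68.7, 74.2 and 85.8 at ZT 19. Creld2 ranged 2.75-fold in controls and 4.95-fold in knockouts, Sdf2l1 2.80-fold and 4.87-fold, Hyou1 2.55-fold and 3.56-fold, and Manf 2.80-fold and 3.44-fold. Derl3, not called in ad libitum liver, passed here at 5.11-fold in controls and 11.5-fold in knockouts, with 6.96, 24.98 and 13.6 CPM at ZT 7 and 1.65, 2.54 and 3.58 at ZT 19 in knockouts. Herpud1 was highest at ZT 13 in controls, at 723, 636 and 671 CPM, while the other control libraries were between 171 and 576. Its 24-h component did not pass in controls (adjusted p = 0.0674), and its range was 1.45-fold. The 24-h component of Xbp1 did not pass in controls (1.09-fold, adjusted p = 0.7) and passed in knockouts (1.31-fold, adjusted p = 0.0486).

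The 24-h rhythm differed between the schedules for 32 of 37 members in controls (54.9% of all genes, joint fit of the 96 liver libraries) and for 34 in knockouts (50.8%). The members not called were Xbp1, Ern1, Eif2ak3, Derl1 and Derl3 in controls and Atf6, Ern1 and Eif2ak3 in knockouts. Where both rhythms passed, the peak of Hspa5 moved from ZT 17.3 to ZT 7.3, a difference of 9.94 h ± 0.731 h (SE). The median difference over the 25 such control members was 9.74 h, from 6.30 h in Sec61a1 to 11.6 h in Sel1l. In the 30 knockout members it was 10.5 h, from 3.55 h in Herpud1 to 11.8 h in Ppp1r15b. The schedules were deposited as 2 tables, so feeding and table cannot be told apart in a level, and only differences of rhythm and of genotype effect are compared between them. Between genotypes the median difference of peak was 0.293 h over 32 ad libitum members, up to 4.22 h ± 1.31 h (SE) in Ern1, and 0.816 h over 28 reverse-phase-fed members, up to 3.03 h ± 1.74 h in Ddit3.

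**Figure D3:**
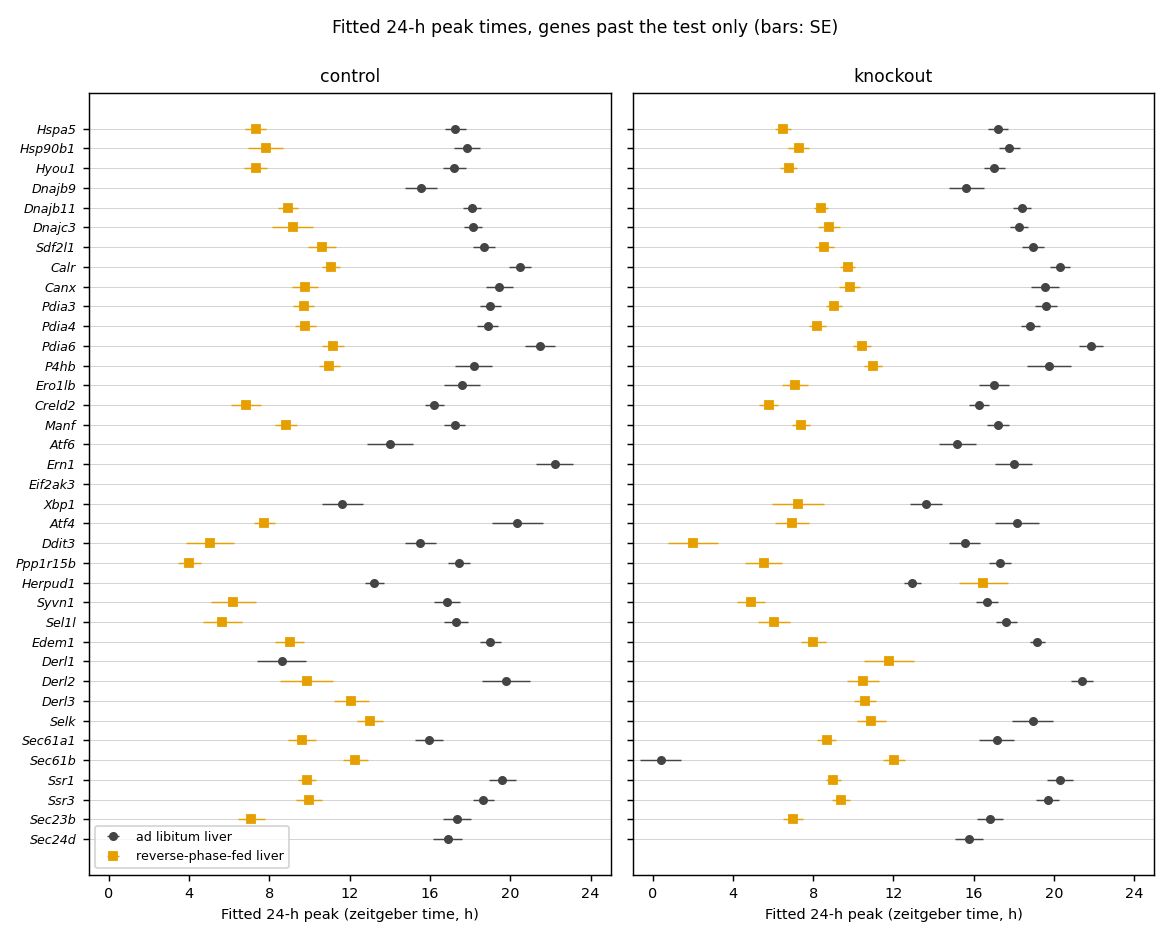
Fitted 24-h peaks (h, x axis) of the members past the test, by gene, in ad libitum and reverse-phase-fed liver of both genotypes; bars are the SE of the peak. The ad libitum peaks lie around ZT 17.7 to 18.0 and the reverse-phase-fed peaks around ZT 8.4 to 9.0.

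No genotype difference of the 24-h rhythm passed the edgeR test, with 0 of 37 members called in ad libitum liver (4.24% of all genes) and 0 of 37 in reverse-phase-fed liver (1.98%). At an unadjusted p under 0.05 there were 3 and 4 members, beside 1964 of 12534 and 1619 of 13810 genes. DESeq2's likelihood ratio test called 1 member (Derl1) and 0. Without control library 3 at ZT 4 edgeR called 1 in ad libitum liver. A p above the threshold does not show that the rhythms were equal.

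The 12-h component of the fit was also tested. In ad libitum liver 1 of 37 members passed in controls (Selk, 3.26% of all genes) and 18 of 37 in knockouts (3.05%). In knockouts the fitted 12-h peaks were near ZT 3.6 and 12 h later. Of the 18 members, 18 lay within 1.5 h of their mean, against 30.6% of all genes called. The knockout median over the 37 members, on the log2 scale centred per gene, was -0.20 at ZT 4 and 0.61 at ZT 16. A daily wave that is not a cosine also gives a 12-h component, and these forms were not told apart. An unadjusted p under 0.05 was seen in 25 members in controls (2384 of 12534 genes) and in 31 in knockouts (2440). Of 37 members, 0 had a genotype difference of the 12-h rhythm in edgeR (0.0479% of all genes) and 0 by DESeq2. In edgeR 1 member had an unadjusted p under 0.05, beside 947 of 12534 genes. The counts 1 and 18 therefore do not show that the genotypes differ. Creld2 had a 12-h range of 2.66-fold in knockouts (adjusted p = 0.0259) and 2.09-fold in controls (adjusted p = 0.136), and Manf 2.10-fold and 1.85-fold. The knockout count rests on few libraries: it was 2 without the 6 libraries at ZT 16, 8 and 7 without knockout library 1 or 3 at ZT 16, and 10 without knockout library 1 at ZT 22. In the knockout ZT 16 group, library 2 was the lowest of the 3 in 29 of 37 members (34.9% of all genes). In controls the count was 0 without the 6 libraries at ZT 16 or without library 2 at ZT 16, and 7 with DESeq2. It was 4 without knockout library 3 at ZT 16, 3 without control library 1 at ZT 10, and 2 without knockout library 2 or 3 at ZT 19, control library 3 at ZT 16 or control library 3 at ZT 4.

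In reverse-phase-fed liver 9 of 37 passed in controls (2.53% of all genes) and 9 in knockouts (2.01%). Their fitted 12-h peaks were near ZT 3.2 and ZT 2.4 and 12 h later. All 9 lay within 1.5 h of their mean in each genotype. Of all genes called, 38.7% did so in controls and 54.3% in knockouts. The 6 members that passed in both genotypes were Creld2, Hspa5, Hyou1, Manf, Sec23b and Syvn1. The genotype difference of the 12-h rhythm passed in 0 of 37 in edgeR (0.00724% of all genes) and in 0 by DESeq2. In edgeR 1 member had an unadjusted p under 0.05, beside 705 of 13810 genes. The feeding difference passed in 0 of 37 in either genotype (0.0222% in both). Its unadjusted p was under 0.05 in 2 members in controls (1096 of 13535 genes) and in 7 in knockouts (1642). Hspa5 had a 12-h range of 2.25-fold in controls (adjusted p = 2.84e-05), beside a 24-h range of 2.17-fold. In each control library Hspa5 was lower at ZT 10 than in any library of ZT 4 or ZT 13 (1067, 999 and 1312 CPM at ZT 13). Such an order, all 3 libraries at ZT 4 and all 3 at ZT 13 above all 3 at ZT 10, held in 7 of 37 members in controls (2.57% of all genes) and in 0 in knockouts (1.8%). The first part of that order alone, ZT 4 above ZT 10, held in 9 control members (10.6%) and 11 knockout members (19.7%). ZT 13 above ZT 10 held in 14 control members (7.36%) and in 2 knockout members, Herpud1 and Manf (3.91%). These orders were looked for after the values were seen and carry no test. The count past the 12-h test in controls was 5 without the 6 libraries at ZT 4. Over the 4 liver conditions, 24 members passed the 12-h test in at least 1 (9.09% of all genes tested in both schedules) and 0 in all 4 (0.04%).

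**Figure D4:**
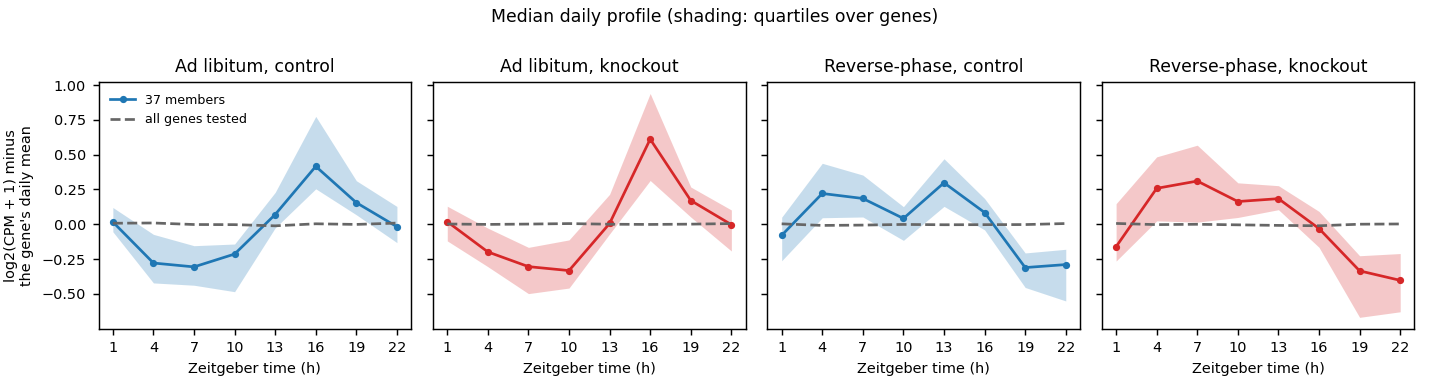
Median over the 37 members of log2 expression centred per gene (line; band, quartiles over members) and the median of all genes tested (thin line), by Zeitgeber time (h), for each schedule and genotype. The members' median is highest at ZT 16 in both genotypes of ad libitum liver. In reverse-phase-fed liver it is highest at ZT 13 in controls (0.30, with 0.22 at ZT 4 and 0.04 at ZT 10) and at ZT 7 in knockouts (0.31).

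The mean over the day differed between genotypes for 12 of 37 members in ad libitum liver (29.1% of all genes), 9 higher (14.5%) and 3 lower (14.6%) in knockouts. The lower ones were Xbp1 (log2 difference knockout minus control -0.33 ± 0.06 (SE), adjusted p = 5.13e-05), Ppp1r15b (-0.23 ± 0.03, adjusted p = 6.92e-07) and Atf4 (-0.20 ± 0.05, adjusted p = 0.000813). The higher ones were Derl3 (0.84 ± 0.33), Pdia6 (0.22 ± 0.06), Ero1lb, Hsp90b1, Dnajb11, Pdia3, Derl2, P4hb and Derl1, at 0.08 ± 0.03 in the smallest. In reverse-phase-fed liver 9 of 37 differed (27.9% of all genes), 5 higher (13%) and 4 lower (14.9%). Atf4 (-0.28 ± 0.04), Xbp1 (-0.22 ± 0.07), Ppp1r15b (-0.21 ± 0.05) and Herpud1 (-0.30 ± 0.10) were lower, and Derl3 (0.88 ± 0.25), Ero1lb (0.26 ± 0.08), Pdia6, Dnajb11 and P4hb were higher. Hspa5 did not pass in either schedule (0.14 ± 0.11 and 0.06 ± 0.08, adjusted p = 0.373 and 0.585). The 8 members called in both schedules, all but Herpud1 of the 9, had the same direction (18.7% of all genes tested in both schedules). Genes called in both schedules hardly ever differed in direction: 2341 of 12488 had the same direction and 4 the opposite. The median over all 37 was 0.05 and 0.06. No member had a genotype effect that differed between the schedules (0 of 37 in edgeR, 0.259% of all genes). The unadjusted p of this difference was under 0.05 in 0 members and in 1025 of 13535 genes.

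The ad libitum count of 12 fell to 6 with 24-h terms only, to 6 without the filter on low counts and to 5 without the 6 libraries at ZT 16. It was 6 or 7 on leaving out any 1 of 12 libraries: knockout libraries ZT 1 (2), ZT 7 (2), ZT 10 (1), ZT 16 (1 and 3) and ZT 19 (1), and control libraries ZT 1 (3), ZT 4 (1 and 3), ZT 13 (3), ZT 19 (3) and ZT 22 (1), with the library number in brackets. In bulk liver, fewer cells of a type and less RNA per cell cannot be told apart. Of 8 stellate markers, 7 differed in daily mean in ad libitum and 6 in reverse-phase-fed liver, and of 10 endothelial markers 7 and 5, all of them higher in knockouts. Of 10 hepatocyte markers 6 differed in ad libitum liver (4 higher and 2 lower in knockouts) and 5 in reverse-phase-fed liver (3 higher and 2 lower), and of 10 Kupffer markers 0 differed in either; their part in the members' differences was not tested. The plasma and B cell markers, a cell type with much ER, summed to 4.41 to 15.4 CPM per library in ad libitum liver and to 5.99 to 42.8 in reverse-phase-fed liver, and none of the 3 and 7 tested differed in daily mean.

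In isolated endothelial cells the members that passed the 24-h test peaked in the dark phase, at ZT 15.9 to 21.0 in controls and ZT 16.5 to 20.1 in knockouts. Hspa5 signal in controls was 1107, 1043 and 1135 at ZT 10 and 3556, 6413 and 5621 at ZT 16, without overlap. Its 24-h range was 4.98-fold on the log2(value + 1) scale in controls (limma, adjusted p = 0.0186) and 4.12-fold in knockouts. Of 36 members tested (Derl3 was below the filter), 13 passed in controls (6.13% of all genes) and 11 in knockouts (13.2%), with mean peaks at ZT 18.8 and 18.1. The peaks of all genes called averaged ZT 18.9 in controls and ZT 13.9 in knockouts. Within 3 h of the members' mean were 13 of 13 members in controls, against 38.2% of all genes called. In knockouts it was 11 of 11, against 41.8%. Sdf2l1 had 3.62-fold, Manf 3.68-fold, Creld2 3.58-fold and Xbp1 2.14-fold in controls. The median range over all 36 members was 1.46-fold in controls, against 1.30-fold over all genes tested. In knockouts it was 1.30-fold, against 1.33-fold. Xbp1 was 433, 357 and 386 at ZT 4 and 739.6, 805 and 582 at ZT 16 in controls, again without overlap. No genotype difference passed in limma, either of the daily mean (0 of 36, 0.0319% of all genes) or of the 24-h rhythm (0 of 36, 2.04%). The unadjusted p was under 0.05 in 0 members for the mean (676 of 12523 genes) and in 3 for the rhythm (2800). In the knockout group at ZT 10, Hspa5 was 1228, 3192 and 1124, and library 2 was the highest of the 3 in 25 of 36 members (35.2% of all genes). The summed hepatocyte markers ran from a group mean of 12644 (control ZT 22) to 42730 (knockout ZT 22), with 0 of 10 called in daily mean and 1 in the 24-h rhythm of controls; their part was not tested.

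The endothelial counts moved with single libraries. The control count was 6 without library 2 at ZT 10, 7 without library 3 at ZT 10, 8 without library 1 at ZT 22, 7 without library 3 at ZT 22 and 7 without library 2 at ZT 4. The knockout count was 6 without library 1 or 3 at ZT 10, 5 without library 1 at ZT 16, 6 without library 3 at ZT 16 and 4 without library 3 at ZT 4. Dnajb9 passed the genotype difference of rhythm without knockout library 3 at ZT 16 or without knockout library 1 at ZT 22.

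In Kupffer cells the members that passed ranged from 1.54-fold to 1.78-fold in controls. Over all 36 members tested the median range was 1.18-fold in controls and 1.19-fold in knockouts. That was not above the median over all genes tested, 1.21-fold and 1.22-fold. Hspa5 was 3918, 3641 and 4121 at ZT 10 and 5534, 6220.1 and 5998 at ZT 16 in controls, a fitted 1.59-fold range (adjusted p = 0.0205). The 4 of 36 members that passed in controls were Hspa5, Calr, Creld2 and Sdf2l1 (1.96% of all genes), and 1 passed in knockouts, Calr at 1.48-fold (1.81%). No genotype difference passed in limma (0 of 36 for the mean, 0.0244% of all genes, and 0 of 36 for the rhythm, 0%). The unadjusted p was under 0.05 in 0 members for the mean (488 of 12270 genes) and in 1 for the rhythm (279). The control count was 1 or 2 without library 1, 2 or 3 at ZT 10, 1, 2 or 3 at ZT 16, 3 at ZT 22 or 2 at ZT 4, and 7 without control library 3 at ZT 4 or knockout library 2 at ZT 10. The knockout count was 0 without the filter on low values and 3 without the libraries that stood apart. It was 2 without knockout library 2 at ZT 10 or at ZT 4, and 0 without 9 other single libraries: knockout libraries 1 and 3 at ZT 10, 1, 2 and 3 at ZT 16, 1 and 2 at ZT 22 and 3 at ZT 4, and control library 2 at ZT 4. The 12-h component could not be estimated from 4 times 6 h apart in either cell type.

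**Figure D5:**
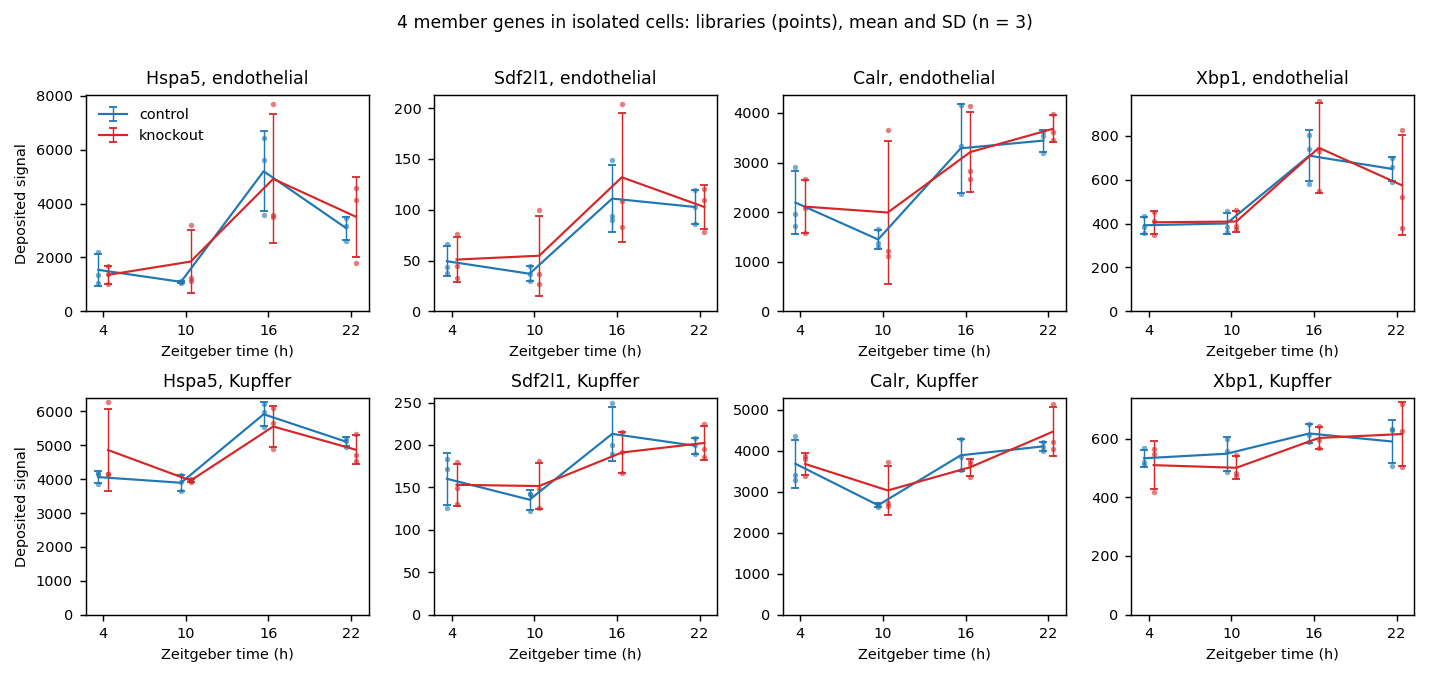
Deposited signal (quantile-normalised, y axis) of Hspa5, Sdf2l1, Calr and Xbp1 in endothelial cells (above) and Kupffer cells (below) by Zeitgeber time (h, x axis); points are libraries, lines join the means of 3 and colours are the genotypes. The rise of Hspa5 from ZT 10 to ZT 16 is wider in the endothelial than in the Kupffer panels; the cell types were not compared by a test.

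Other ER genes were counted in 5 lists by function. Over all genes, the share that passed the 24-h test was 50.1% in ad libitum controls, 46.7% in ad libitum knockouts, 43% in reverse-phase-fed controls and 38.7% in reverse-phase-fed knockouts. Of 20 genes of translocation and glycosylation, 12 passed the ad libitum 24-h test in controls and 11 in knockouts, and 17 and 17 in reverse-phase-fed liver. Of 22 folding genes it was 13, 13, 14 and 14, and Fkbp11, an ER prolyl isomerase, was higher in knockouts in both schedules (log2 difference 0.56 ± 0.10 and 0.95 ± 0.10, SE). Pdia5, a disulfide isomerase, was lower in both (-0.36 ± 0.06 and -0.46 ± 0.06). Of 19 degradation genes it was 10, 10, 7 and 8. In ad libitum liver 2 genes of that list had a genotype difference of the 24-h rhythm (4.24% of all genes). They were Ube2g2, a ubiquitin-conjugating enzyme (edgeR adjusted p = 0.000126), and Erlin1. In reverse-phase-fed liver (1.98%) that rhythm differed for Erlin1 (edgeR adjusted p = 0.00666) and for Fgf21 of the stress signalling list (0.0366). In endothelial cells (2.04%) it differed for Prkcsh and Ero1l of the folding list (limma adjusted p = 0.0309 and 0.0334). The daily mean differed in 5 and 3 genes of translocation (ad libitum and reverse-phase-fed), 8 and 8 of folding, 6 and 7 of degradation, 1 and 5 of export and 8 and 5 of stress signalling, against 29.1% and 27.9% of all genes. Of the vesicle export genes, 15 and 15 of 19 passed in ad libitum liver and 17 and 16 of 20 in reverse-phase-fed liver. Of the stress signalling genes, 16 and 16 of 22 passed in ad libitum liver and 9 and 12 of 23 in reverse-phase-fed liver. Trib3, a pseudokinase induced by ATF4 and CHOP, had a control peak at ZT 6.3 and 8.40-fold in ad libitum liver and ZT 19.2 and 6.03-fold in reverse-phase-fed liver.

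Members with and without an ERSE were set side by side as a description. The median 24-h range in ad libitum controls was 1.79-fold against 1.54-fold, in ad libitum knockouts 1.98-fold against 1.60-fold, in reverse-phase-fed controls 1.72-fold against 1.56-fold and in reverse-phase-fed knockouts 2.15-fold against 1.54-fold (10 and 21 members). The ranges of the 2 groups of members overlapped in every case.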

How the data were processed

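Expected counts (multiples of 0.5 in ad libitum liver and reverse-phase-fed liver) and a signal in endothelial and Kupffer cells were deposited by the authors. STAR, HOMER and mm9 stand in the submitters' processing notes, and their versions and settings were not stated. The endothelial and Kupffer columns share one set of sorted values, which was read as quantile normalisation of the signal by the authors. Expected counts were rounded, filtered by edgeR's group rule and fitted with edgeR 4.0.16 (R 4.3.3; TMM, robust quasi-likelihood F test) with a mean, 24-h and 12-h cosine and sine per genotype; a joint fit of the 96 liver libraries gave the feeding differences. The signal was fitted with limma 3.58.1 (trend, robust) on log2(value + 1) with 24-h terms, for genes of at least 10 in 3 libraries. Adjusted p is Benjamini-Hochberg over all genes tested, with a threshold of 0.05. DESeq2 1.42.0, other filters, pseudocounts, transcripts, blocks and left-out libraries were alternatives. The members and lists were chosen with earlier results of these data known, and all members are named with values for those that carry a result. The code was tested on simulated data. Promoters were scanned in RefSeq windows of GRCm38.p6, and coordinates of genes are mm9; neither was converted.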

Additional observations from a re-analysis of the deposited data

Results flagged for a closer look

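The 24-h rhythm differed between schedules by a test of the difference itself, in 32 of 37 members of control liver and 34 of 37 of knockout liver. In controls the smallest adjusted p (edgeR quasi-likelihood, joint fit) were 9.85e-15 for Dnajb11, 1.76e-14 for Calr, 1.93e-13 for Hspa5 and 6.47e-13 for Pdia3. In knockouts they were 8.36e-18 for Dnajb11, 2.08e-17 for Calr, 1.73e-16 for Hspa5 and 2.03e-16 for Edem1. The feeding schedule and the table in which it was deposited cannot be told apart.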

How the results depend on the processing

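Most counts kept their size and most named values their call. Of 2530 alternatives for single genes, 2482 still passed, 48 no longer passed and 0 reversed. These genes were the called members with the smallest p in each result, up to 4, so the tally favours stable calls. A reversal could be scored only for a daily mean, not for a rhythm, and alternatives in which the gene was not tested were left out. Of 1065 alternatives for counts, 997 were within 1.5 times the main value and 68 were not. A main count of 0 that stayed at 0 was scored as within this limit, so this tally favours stable counts too. TMM against DESeq2 size factors, filters, transcripts and pseudocounts left the rhythm counts within that limit except as follows. With DESeq2 the ad libitum 12-h count of controls was 7 (main 1) and the genotype difference of the 24-h rhythm 1 (main 0). The ad libitum daily-mean count was 6 with 24-h terms only, 6 without the filter and 5 without ZT 16 (main 12). The ad libitum 12-h counts were 0 in controls (and 0 without libraries that stand apart) and 2 in knockouts without ZT 16 (main 1 and 18), and the reverse-phase-fed control 12-h count was 5 without ZT 4 (main 9). The Kupffer knockout 24-h count was 0 without a filter, 0 with the replicate block and 3 without the libraries that stand apart (main 1). The cause was not tested. Leaving out single libraries gave 0 to 4 and 7 to 23 for the ad libitum 12-h counts, 0 to 1 for the genotype difference of the 24-h rhythm, 6 to 12 for the daily mean, 6 to 16 and 4 to 14 for the endothelial 24-h counts, 0 to 1 for their difference, and 1 to 7 and 0 to 2 for the Kupffer counts. Removing ZT 16 or ZT 4 was chosen after seeing the data. Replicate numbers are only numbers: same-numbered libraries had mean correlations of 0.011, 0.018, 0.016 and 0.067 in the 4 tables. With the replicate block the daily-mean count was 11 and the endothelial counts 10 and 9. Derl3 counts were low in liver, whether depth bears on its calls was not tested, and 3 libraries per time limit all values.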

Other observations

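The place of each library within its group of 3 was tallied over the members, after the values were seen. No such tally of groups was made over all genes, so the counts of groups have no share to be set against. One library was the highest, or the lowest, of its group in over 75% of the members tested in 6 of 16 groups of ad libitum liver, 6 of 16 of reverse-phase-fed liver, 2 of 8 of endothelial cells and 0 of 8 of Kupffer cells. In ad libitum knockout liver, library 1 at ZT 19 was the highest of 3 in 30 of 37 members (35.2% of all genes) and library 2 at ZT 16 the lowest in 29 of 37 (34.9%). In reverse-phase-fed liver at ZT 4, knockout library 3 was the highest in 34 of 37 (38.6%) and control library 1 the lowest in 32 of 37 (37.2%). In endothelial cells knockout library 3 at ZT 16 was the highest in 31 of 36 (39.1%). In ad libitum control liver library 2 at ZT 16, which stood apart in its table, was the highest in 20 of 37 (38.4%). The named libraries were picked after the values were seen.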
